A study of Homo sapiens with 6 samples.

Results

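Expression of 38 genes of glycolysis and the hypoxia response was examined in 22Rv1 cells, a human prostate carcinoma epithelial cell line, before and after 6 weeks of repeated DNA damage. The genes were chosen by symbol, and all 38 were found among the 29804 gene rows of the RNA-seq count table. They were 14 core glycolysis enzymes, 2 lactate dehydrogenases, 4 glucose and lactate transporters, 5 kinases that set the flux of glucose carbon, 12 targets of hypoxia-inducible factor (HIF) that lie outside glycolysis, and HIF1A itself. The rule names symbols and uses no measured value, but the genes and lists were chosen with earlier results of these data known. The core glycolysis enzymes were set beside the HIF targets outside glycolysis.

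In a study of adaptation to DNA damage, 3 groups were compared, with 2 libraries in each, labelled as biological replicates. WT cells were untreated and taken at week 0. AM (age matched) cells were untreated and taken after 6 weeks of culture. 6WP cells were given 1 µg/ml of phleomycin, a radiomimetic drug that breaks DNA, every week day for 6 weeks. All libraries carry the genotype label WT and come from 1 cell line, so the WT group is named for being the parental culture and not for a genotype that the other groups lack. Only RNA was measured here, without oxygen, glucose or lactate readings.

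Glycolysis splits glucose to pyruvate in the cytosol. Lactate dehydrogenase turns pyruvate into lactate, and pyruvate dehydrogenase kinases hold pyruvate back from the mitochondria. HIF1A is the oxygen-labile subunit of HIF-1, which in low oxygen binds ACGTG or GCGTG cores in DNA and raises the transcription of many glycolysis genes together with genes for blood vessel growth, pH control, mitophagy and collagen hydroxylation. Prolyl hydroxylases of the EGLN family mark HIF1A for destruction when oxygen is present and are themselves HIF targets.

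Library totals lay between 21222201 and 35311945 counts, and a level of 3 counts corresponded to 0.085 to 0.141 CPM (counts scaled to a common library size, with TMM factors that correct for RNA composition). Of the 38 genes, 36 passed the filter on low counts, and the group where a gene is high is enough to pass it. Of the epithelial and prostate markers, KLK3, HOXB13, KRT8 and EPCAM were counted in every library, while 3 of the 6 endothelial and leukocyte markers, CDH5, PTPRC and CD3E, were at 0 in all 6. The other three, PECAM1, VWF and CD14, had at most 2, 1 and 9 counts in a library, the highest being CD14 in 6WP replicate 1. Of the 5 fibroblast markers, COL1A1 had 34 to 55 counts, COL3A1 14 to 49, PDGFRB 1 to 14, THY1 0 to 6 and COL1A2 0 to 2. The first 3 passed the filter on low counts, and none of them was called in any comparison. KRT8 was called lower and KLK2, another prostate marker, higher in AM against WT, and their part in the results was not tested. The 6WP replicates differed more from each other than did the replicates of the other groups, with a chi-square of their counts, divided by its degrees of freedom, of 63.9 in 6WP, 9.14 in AM and 5.67 in WT, where pure counting error gives 1. The median SD of log2 CPM over the tested members was 0.181 in 6WP, 0.111 in AM and 0.0623 in WT.

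The first comparison set AM cells, untreated for 6 weeks of culture, beside WT cells taken at week 0. Time in culture and anything else that differed between the 2 samplings cannot be told apart. In AM cells, 8 of the 14 core glycolysis enzymes were higher than in WT cells, SLC2A1 (GLUT1, the main glucose importer of many cell lines) was lower, and HIF targets outside glycolysis other than BNIP3 were not called. By edgeR's quasi-likelihood test with Benjamini-Hochberg adjustment over 14672 genes and a threshold of 0.05, 10 members rose and 1 fell in AM against WT, which is 30.6% of the 36 tested, beside 17.7% of all genes called (7.74% higher and 9.93% lower). None of the core enzymes was called lower in this fit. PFKP was called lower with a GC content offset (adjusted p = 0.039) and with a gene length offset (adjusted p = 0.0499), and fitted to the 4 libraries of these groups alone 12 core enzymes were called higher and 2 lower, where 46.5% of all genes were called. The 8 core enzymes called higher became 5 with upper quartile scaling and 6 with library size scaling alone. Calls over all genes were then 17.2% and 16.3%. The median log2 fold change was 0.54 over the core enzymes, 0.04 over the 11 tested HIF targets outside glycolysis and -0.0023 over all genes. In 12 of the 14 core enzymes both AM libraries lay above both WT libraries, and in the other 2, PFKM and PFKP, both lay below. Of all genes, 36.9% were higher and 36.9% lower in AM without overlap. In bulk RNA, fewer cells of a kind and less RNA per cell cannot be told apart. In each of the 4 fits that left out 1 WT or AM library no member was called by edgeR, with 11 to 19 members at an unadjusted p under 0.05, and calls over all genes dropped to between 0.448% and 0.902%. With all libraries, DESeq2 called 14 members, beside 20.7% of all genes.

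The second comparison set 6WP cells beside AM cells, which had been cultured for the same time. In 6WP cells, 9 of the 14 core glycolysis enzymes and LDHA were lower, and VEGFA, the vascular endothelial growth factor, was higher. The same edgeR test called 14 members (38.9%), 13 lower and 1 higher, beside 21.3% of all genes called (11.7% higher and 9.68% lower). None of the core enzymes was called higher in this fit, which did not hold without 6WP replicate 1, where calls over all genes also rose. In 11 core enzymes both 6WP libraries were below both AM libraries, and 28.5% of all genes showed such a gap in that direction. The median log2 fold change was -0.52 over core enzymes, -0.01 over HIF targets outside glycolysis and 0.0482 over all genes. Fitted to the 4 libraries of these groups alone, 8 members were called, beside 9.07% of all genes. Without AM replicate 1, 3 members were called by edgeR (PGK1, LDHA and PFKFB4), and without AM replicate 2 none was, with 17 and 14 at an unadjusted p under 0.05, while calls over all genes dropped to 1.18% and 0.775%.

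The third comparison set 6WP cells beside the WT cells from which they came, and fewer genes were called. VEGFA rose and PDK3, a pyruvate dehydrogenase kinase, fell, so 2 of 36 members (5.56%) were called, beside 3% of all genes (1.63% higher and 1.37% lower). With all libraries, no core glycolysis enzyme was called by edgeR or by DESeq2, and 1 of the 14, PGK1, had an unadjusted p under 0.05. Fold changes of the core enzymes on the log2 scale lay between -0.29 and 0.23, with a median of -0.09, beside -0.15 for HIF targets outside glycolysis and 0.0135 for all genes. Without WT replicate 1 or 2 no member was called by edgeR, with 4 and 6 at an unadjusted p under 0.05, and 0 of all genes were called. Without 6WP replicate 1 there were 12 calls and without replicate 2 there were 8, and calls over all genes then reached 25.2% and 26%. Core enzymes were among them, with HK2 higher and GAPDH, PGAM1 and PKM lower without 6WP replicate 1 (adjusted p = 0.00184, 0.0334, 0.00343 and 0.0312) and 1 core enzyme lower without replicate 2. All 3 comparisons share libraries, so their counts are not independent of each other.

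Summed over the 14 core enzymes, expression was 10715 and 10126 CPM in the WT libraries, 13950 and 15553 CPM in the AM libraries and 10703 and 8856 CPM in the 6WP libraries. Both AM sums were thus the highest of the 6, and the 6WP sums spanned the lower end. Relative to the WT mean, the median core enzyme stood at 0.47 and 0.62 on the log2 scale in AM and at 0.01 and -0.14 in 6WP libraries. The 11 tested HIF targets outside glycolysis summed to 494 and 471 CPM in WT, 510 and 542 CPM in AM and 541 and 570 CPM in 6WP libraries. Their median stood at 0.02 and 0.12 in AM and at -0.06 and -0.12 in 6WP libraries, close to the WT mean in all 6 libraries.

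**Figure D1:**
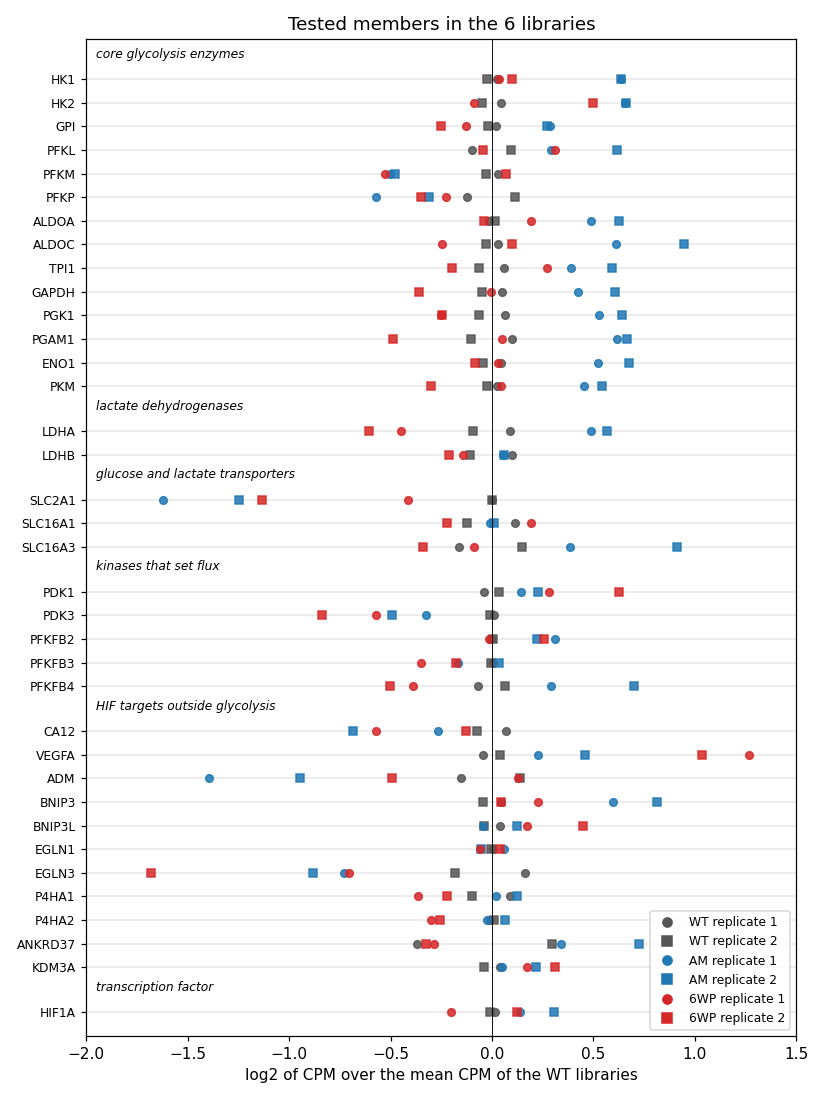
Each row is 1 of the 36 tested members, grouped by role, and each point is 1 library (circle: replicate 1, square: replicate 2) at the log2 of its CPM over the mean CPM of the WT libraries. Blue AM points lie right of the gray WT points for 12 of the 14 core glycolysis enzymes, while red 6WP points lie around the WT points. VEGFA has the 2 rightmost points, both 6WP, and for SLC2A1 both AM points lie left of both 6WP points.

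The upper steps of glycolysis trap and rearrange glucose. HK1, a hexokinase that phosphorylates glucose at the outer mitochondrial membrane, stood at 88.1 and 85.4 CPM in WT, 135 and 135 CPM in AM and 89 and 92.9 CPM in 6WP libraries. The AM libraries lay above the other 4, which nearly coincided. HK1 rose in AM over WT (log2 fold change 0.64 ± 0.10, adjusted p = 0.00791, where ± gives the standard error of the edgeR fit as in all log2 fold changes) and fell in 6WP against AM (-0.57 ± 0.10, adjusted p = 0.00932). HK2, the inducible hexokinase, was measured at 79.1 and 74.1 CPM in WT, 120.4 and 121 CPM in AM and 71.9 and 108 CPM in 6WP libraries. It rose in AM over WT (0.66 ± 0.18, adjusted p = 0.0411), a call lost with upper quartile scaling (adjusted p = 0.0658). Its 6WP libraries differed from each other by more than the WT libraries did, and 6WP against AM gave -0.42 ± 0.18 (adjusted p = 0.126). Per kb of transcript, HK1 made up 57.3% to 65.9% of hexokinase RNA in the 6 libraries, so HK1 exceeded HK2 in each of them.

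GPI, which converts glucose 6-phosphate to fructose 6-phosphate, stood at 493 and 480.2 CPM in WT, 594 and 587 CPM in AM and 446 and 408 CPM in 6WP libraries. Its AM libraries were the highest and its 6WP libraries the lowest, without overlap between groups. GPI fell in 6WP against AM (-0.47 ± 0.10, adjusted p = 0.0191), while AM against WT gave 0.28 ± 0.10 (adjusted p = 0.0964). Phosphofructokinase, the committed step, is made of PFKL, PFKM and PFKP subunits, and none of the 3 was called in any comparison when all libraries were fitted without an offset. PFKM stood at 281 and 270.2 CPM in WT, 194 and 198 CPM in AM and 191 and 289 CPM in 6WP libraries, so that 6WP replicate 1 resembled AM libraries and replicate 2 resembled WT libraries. PFKL and PFKM had opposite signs in AM (0.46 ± 0.16 for PFKL and -0.49 ± 0.18 for PFKM against WT, adjusted p = 0.0841 and 0.0914). Per kb, PFKM was 66.5% and 62.5% of phosphofructokinase RNA in WT, 53.2% and 48.1% in AM and 51.7% and 67% in 6WP libraries. The AM shares were below the WT shares and the 6WP shares spanned both. PFKP was the least abundant subunit, at 20.2 and 23.8 CPM in WT, 14.8 and 17.8 CPM in AM and 18.8 and 17.3 CPM in 6WP libraries, with -0.29 ± 0.16 in 6WP against WT (adjusted p = 0.318).

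Aldolase splits the 6-carbon sugar into trioses. ALDOA stood at 748 and 766 CPM in WT, 1063 and 1167 CPM in AM and 866 and 737 CPM in 6WP libraries. It rose in AM over WT (0.56 ± 0.12, adjusted p = 0.0212) and fell in 6WP against AM (-0.48 ± 0.12, adjusted p = 0.0295). ALDOC, the second aldolase of these cells, stood at 60.4 and 57.9 CPM in WT, 90.2 and 114 CPM in AM and 49.8 and 63.4 CPM in 6WP libraries. Its AM libraries were the highest, and it had the largest rise among core enzymes in AM over WT (0.79 ± 0.16, adjusted p = 0.0161) and the largest fall in 6WP against AM (-0.85 ± 0.16, adjusted p = 0.0112). ALDOA still held 90.9% to 94.5% of aldolase RNA per kb in all libraries. Exons of ALDOA share 1639 bases on the same strand with an unnamed gene model (ENSG00000285043), and reads there could have been counted to either. TPI1, triose phosphate isomerase, was not called, and stood at 1546 and 1421 CPM in WT, 1945 and 2235 CPM in AM and 1792 and 1294 CPM in 6WP libraries.

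The lower steps yield ATP and pyruvate. GAPDH, often used as a reference gene in RT-qPCR, stood at 4808 and 4487 CPM in WT, 6230 and 7076 CPM in AM and 4635 and 3616 CPM in 6WP libraries. Its AM libraries were above all others, and 6WP replicate 2 was below all others. GAPDH fell in 6WP against AM (-0.69 ± 0.16, adjusted p = 0.0205). Against WT it was 0.52 ± 0.16 (adjusted p = 0.0552) in AM and -0.17 ± 0.16 (adjusted p = 0.552) in 6WP cells. GAPDH was called in AM over WT by DESeq2 (adjusted p = 0.00884). Per kb of transcript it was the highest of the 38 genes in each group, at 3617 ± 177 CPM per kb for WT (mean ± SD, n = 2), 5178 ± 466 for AM and 3211 ± 561 for 6WP cells. The annotation lists 65 named GAPDH pseudogenes, none of which is a row of the count table, so reads that fit both cannot be assigned with certainty.

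PGK1, phosphoglycerate kinase, which makes the first ATP of the pathway, stood at 395 and 362 CPM in WT, 546 and 589.6 CPM in AM and 318 and 318 CPM in 6WP libraries. The groups did not overlap, and the 6WP libraries were the lowest. PGK1 rose in AM over WT (0.59 ± 0.11, adjusted p = 0.0118) and fell in 6WP against AM (-0.84 ± 0.11, adjusted p = 0.00379). PGAM1, phosphoglycerate mutase, stood at 90.1 and 78.3 CPM in WT, 129 and 134 CPM in AM and 87 and 60 CPM in 6WP libraries. It rose in AM over WT (0.64 ± 0.17, adjusted p = 0.0404) and fell in 6WP against AM (-0.84 ± 0.17, adjusted p = 0.0156). The PGAM1 rise missed the threshold with library size scaling alone (adjusted p = 0.0682) and with upper quartile scaling (adjusted p = 0.0606).

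ENO1, the main enolase, stood at 1233 and 1158 CPM in WT, 1718 and 1909 CPM in AM and 1219.7 and 1128 CPM in 6WP libraries, with WT and 6WP libraries between 1128 and 1233 CPM and both AM libraries above them. It rose in AM over WT (0.60 ± 0.12, adjusted p = 0.0146) and fell in 6WP against AM (-0.63 ± 0.12, adjusted p = 0.0112). PKM, pyruvate kinase, stood at 761 and 736 CPM in WT, 1026 and 1089 CPM in AM and 771 and 608 CPM in 6WP libraries. PKM rose in AM over WT (0.50 ± 0.13, adjusted p = 0.04) and fell in 6WP against AM (-0.62 ± 0.13, adjusted p = 0.0185). Its rise missed the threshold with library size scaling alone (adjusted p = 0.0686) and with upper quartile scaling (adjusted p = 0.0659), as did that of PGAM1. The counts do not separate the PKM1 and PKM2 splice forms.

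**Figure D2:**
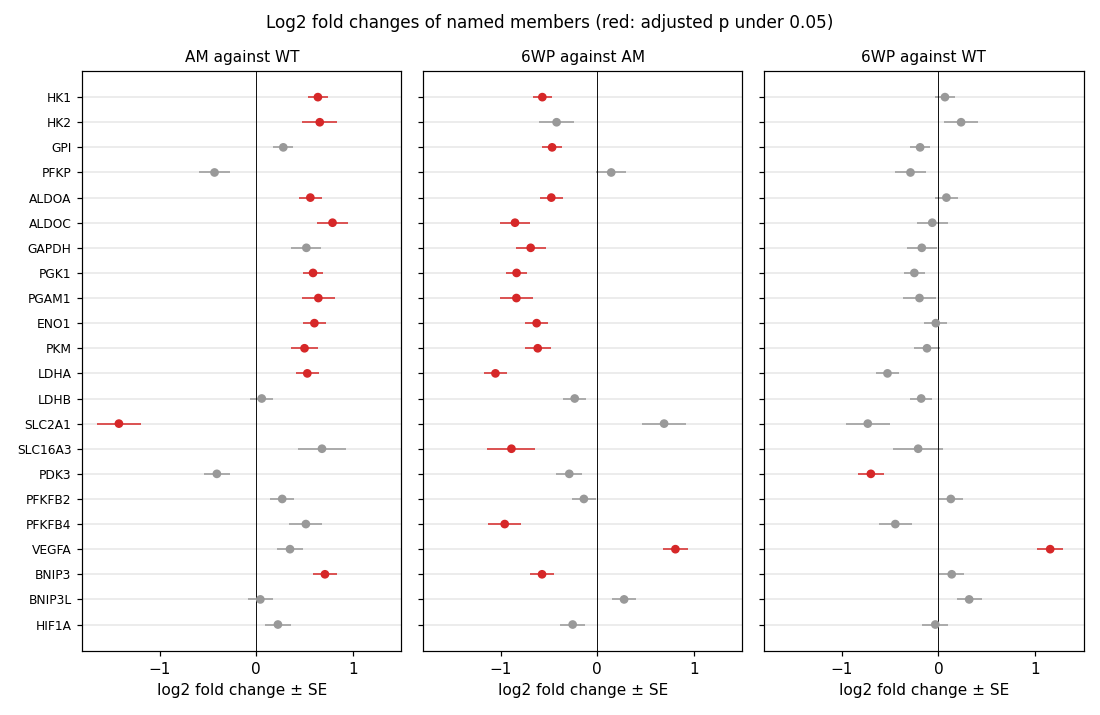
Points are log2 fold changes of 22 members and bars are their standard errors from the edgeR fit to all 6 libraries, in 3 panels for AM against WT, 6WP against AM and 6WP against WT, with red marking an adjusted p under 0.05. From HK1 to LDHA, red points lie right of 0 in the first panel and left of 0 in the second. In the third panel VEGFA and PDK3 are the red points.

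At the end of the pathway the lactate dehydrogenases differed. LDHA (chr11:18394560-18408425 in hg38, plus strand), which favours lactate production and is a classical HIF target, stood at 691 and 610.2 CPM in WT, 911 and 964 CPM in AM and 476 and 427 CPM in 6WP libraries. The groups did not overlap, with AM highest and 6WP lowest. LDHA rose in AM over WT (0.53 ± 0.12, adjusted p = 0.0229) and fell in 6WP against AM (-1.05 ± 0.12, adjusted p = 0.00272), the largest called fall among the 36 members in that comparison. In 6WP against WT it was -0.53 ± 0.12 (adjusted p = 0.0565), past the threshold with DESeq2 (adjusted p = 0.00326). LDHB, whose enzyme favours the reverse reaction, stood at 1216 and 1054 CPM in WT, 1177 and 1183 CPM in AM and 1027 and 979.8 CPM in 6WP libraries and was not called in any comparison. Its 6WP libraries were below the other 4 by little, with -0.23 ± 0.12 against AM (adjusted p = 0.182).

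The LDHA share of lactate dehydrogenase RNA differed between the groups. Per kb LDHA held 24.8% and 25.2% in WT, 31% and 32.1% in AM and 21.2% and 20.2% in 6WP libraries. The 3 groups did not overlap. LDHB remained the larger part in every library. Its exons share 997 bases on the same strand with an unnamed gene model (ENSG00000285854), and reads there could have been counted to either. An exact permutation test of 2 against 2 libraries cannot give a two-sided p below 0.333, so none is given for the share.

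**Figure D3:**
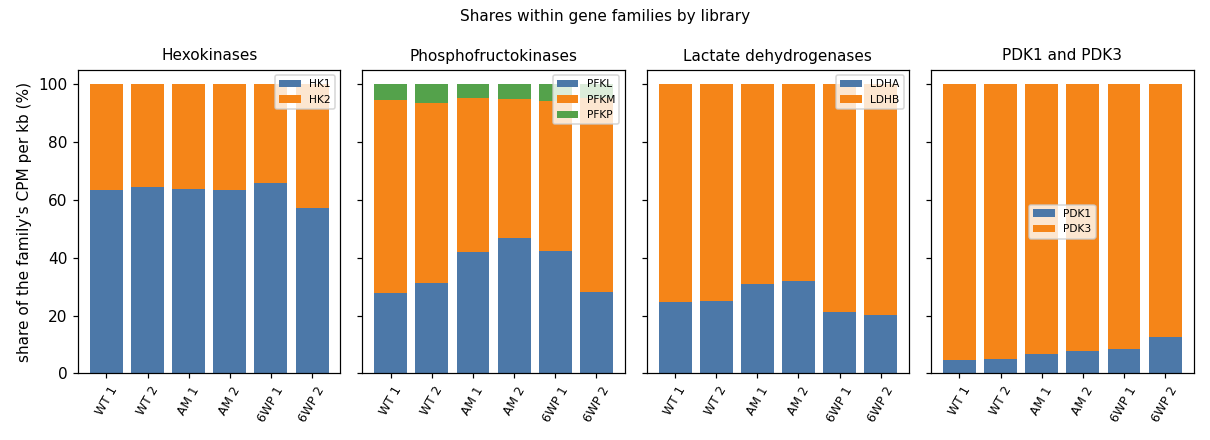
Stacked bars give, for each library, the percentage of a gene family's CPM per kb of canonical transcript held by each gene, for hexokinases, phosphofructokinases, lactate dehydrogenases and the pair PDK1 and PDK3. The LDHA part is 31% and 32.1% in AM and 21.2% and 20.2% in 6WP libraries, the PFKL part is larger in AM than in WT, and the HK1 part varies little except in 6WP replicate 2.

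Glucose enters through SLC2A1, and lactate leaves through the monocarboxylate carriers SLC16A1 and SLC16A3. SLC2A1 (chr1:42925353-42958893, minus strand) stood at 965 and 968 CPM in WT, 314 and 408 CPM in AM and 724 and 441 CPM in 6WP libraries. The WT libraries were nearly equal and the highest, the AM libraries were the lowest, and the 6WP libraries lay between them, far apart from each other. SLC2A1 fell in AM against WT (-1.42 ± 0.23, adjusted p = 0.00841), the only member called lower in that comparison and the largest change of any called member. In 6WP it was -0.73 ± 0.22 (adjusted p = 0.113) against WT and 0.69 ± 0.22 (adjusted p = 0.0626) against AM. Both were past the threshold with DESeq2 (adjusted p = 0.0198 and 0.0231). So the importer was lowest in the AM cells, where 8 of the 14 glycolysis enzymes had risen. An unnamed gene on the opposite strand overlaps 497 bases of SLC2A1 exons.

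SLC2A3 (GLUT3), the high-affinity glucose importer, had 0, 2, 0, 0, 2 and 0 counts in the 6 libraries and was not tested, at or under the level of 3 counts in each. SLC16A1 (MCT1) was level, at 154 and 130.3 CPM in WT, 141 and 143 CPM in AM and 162 and 122 CPM in 6WP libraries, with a log2 difference of 0.00 ± 0.15 in AM against WT. SLC16A3 (MCT4), the lactate exporter of glycolytic cells, was low in this line at 3.75 and 4.64 CPM in WT, 5.47 and 7.89 CPM in AM and 3.94 and 3.31 CPM in 6WP libraries. It fell in 6WP against AM (-0.89 ± 0.25, adjusted p = 0.0392), a call lost with upper quartile scaling (adjusted p = 0.0515).

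**Figure D4:**
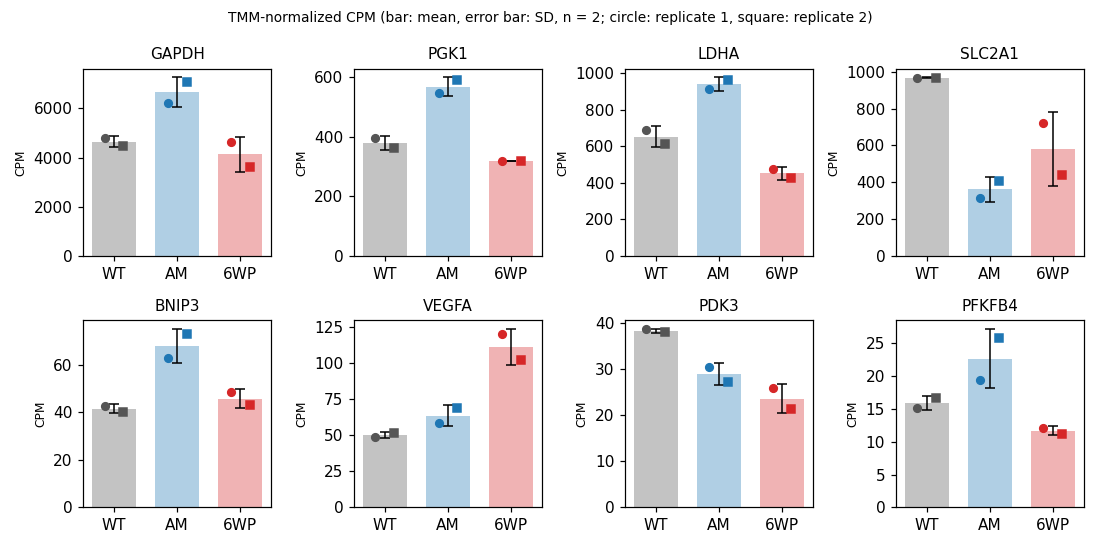
Bars show the mean TMM-normalized CPM of each group, error bars the SD (n = 2) and points the libraries (circle: replicate 1, square: replicate 2), on linear axes from 0, for 8 genes. AM bars are the tallest for GAPDH, PGK1, LDHA, BNIP3 and PFKFB4, the WT bar is the tallest for SLC2A1 and PDK3, and the 6WP bar is the tallest for VEGFA.

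Among the kinases that set flux, the pyruvate dehydrogenase kinases switch off entry of pyruvate into the citric acid cycle. PDK3 (chrX:24465244-24550466, plus strand) stood at 38.5 and 37.9 CPM in WT, 30.5 and 27.2 CPM in AM and 25.7 and 21.4 CPM in 6WP libraries. The WT libraries were the highest and the 6WP libraries the lowest, without overlap. PDK3 fell in 6WP against WT (-0.70 ± 0.14, adjusted p = 0.0413), and the call was lost with library size scaling alone (adjusted p = 0.0527) and in the fit to the 4 libraries compared (adjusted p = 0.116). PDK1, the form most often named as a HIF target, pointed the other way at 15.7 and 16.5 CPM in WT, 17.7 and 18.8 CPM in AM and 19.5 and 24.8 CPM in 6WP libraries, with 0.46 ± 0.16 (adjusted p = 0.136) in 6WP against WT. Per kb, PDK1 made up 4.79% and 5.1% of the pair in WT, 6.72% and 7.87% in AM and 8.58% and 12.6% in 6WP libraries. The level of that share rests on canonical transcripts of 14072 bases for PDK1 and 1741 bases for PDK3. Merged over all transcripts, their exons cover 14845 and 17456 bases, so the level depends on the transcript chosen.

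The PFKFB enzymes make and remove fructose 2,6-bisphosphate, an activator of phosphofructokinase. PFKFB4 stood at 15.2 and 16.7 CPM in WT, 19.5 and 25.9 CPM in AM and 12.2 and 11.2 CPM in 6WP libraries. Its AM libraries were the highest and its 6WP libraries the lowest. It fell in 6WP against AM (-0.96 ± 0.17, adjusted p = 0.00996), and in AM against WT it was 0.51 ± 0.17 (adjusted p = 0.0729). PFKFB2, the most abundant of this group by CPM, stood at 66.2 and 66.7 CPM in WT, 82.4 and 77.6 CPM in AM and 65.8 and 79.5 CPM in 6WP libraries and was not called. PFKFB3, an inducible form, was not called either, with -0.26 ± 0.13 in 6WP against WT (adjusted p = 0.27). PFKFB4 exons overlap 298 bases of UCN2 on the same strand.

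HIF targets outside glycolysis showed no common direction. VEGFA, the growth factor that starts new vessels (chr6:43770184-43786487 in hg38, plus strand), stood at 48.5 and 51.4 CPM in WT, 58.4 and 68.6 CPM in AM and 120.1 and 102 CPM in 6WP libraries. Both 6WP libraries were above all others, and the AM libraries were above the WT libraries. VEGFA rose 2.23-fold in 6WP over WT (log2 fold change 1.16 ± 0.13, adjusted p = 0.00691) and 1.75-fold over AM (0.81 ± 0.13, adjusted p = 0.0074). In AM against WT it was 0.35 ± 0.13 (adjusted p = 0.101). VEGFA was the only member called higher in either comparison of 6WP cells, and the call against WT was lost only in the fits that left out a WT library (adjusted p = 0.176 without WT replicate 1 and 0.143 without replicate 2).

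BNIP3, a mitophagy receptor, was the other called HIF target outside glycolysis. It stood at 42.8 and 40.3 CPM in WT, 62.8 and 73 CPM in AM and 48.5 and 42.9 CPM in 6WP libraries, with both AM libraries above the other 4. BNIP3 rose in AM over WT (0.71 ± 0.13, adjusted p = 0.0117) and fell in 6WP against AM (-0.57 ± 0.13, adjusted p = 0.019). Its annotation lists 44 named pseudogenes, 1 of which is a row of the table. BNIP3L, its relative in mitophagy, stood at 109.6 and 104 CPM in WT, 104 and 116 CPM in AM and 120.5 and 146 CPM in 6WP libraries, with 0.32 ± 0.13 (adjusted p = 0.196) in 6WP against WT.

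The other targets were not called in any comparison. EGLN1, the prolyl hydroxylase that is the main oxygen sensor for HIF1A, was level at 107 and 106 CPM in WT, 111 and 102 CPM in AM and 102 and 109 CPM in 6WP libraries. Exons of EGLN1 share 3004 bases on the same strand with an unnamed gene model (ENSG00000287856), and reads there could have been counted to either. EGLN3, the more inducible hydroxylase, was low at 1.52 and 1.19 CPM in WT, 0.818 and 0.736 CPM in AM and 0.832 and 0.423 CPM in 6WP libraries, with -1.11 ± 0.40 (adjusted p = 0.158) in 6WP against WT, the largest negative value among the members in that comparison. ADM, a vasodilator peptide, was also low at 0.714 and 0.873 CPM in WT, 0.301 and 0.412 CPM in AM and 0.868 and 0.564 CPM in 6WP libraries. P4HA1 and P4HA2, which hydroxylate collagen prolines, were -0.36 ± 0.12 and -0.30 ± 0.16 in 6WP against AM (adjusted p = 0.0607 and 0.209). In both genes the 6WP libraries lay below the other 4.

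KDM3A, a histone demethylase, was 0.24 ± 0.12 in 6WP against WT (adjusted p = 0.273), and CA12, a carbonic anhydrase that balances pH, was -0.33 ± 0.19 (adjusted p = 0.355). CA12 was -0.46 ± 0.20 in AM against WT (adjusted p = 0.132) and 0.13 ± 0.20 in 6WP against AM (adjusted p = 0.655). ANKRD37, a small ankyrin protein used in hypoxia signatures, stayed between 0.58 and 1.24 CPM in all libraries. CA9, the carbonic anhydrase most used as a hypoxia marker, had 3 and 4 counts in WT, 3 and 6 in AM and 12 and 10 in 6WP libraries and did not pass the filter on low counts. Its exons overlap 571 bases of ARHGEF39 on the opposite strand.

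HIF1A itself stood at 133 and 131 CPM in WT, 145 and 163 CPM in AM and 115 and 144 CPM in 6WP libraries. The 6WP libraries fell on both sides of the WT libraries. It was not called, with 0.22 ± 0.13 in AM against WT, -0.26 ± 0.13 in 6WP against AM and -0.03 ± 0.13 in 6WP against WT (adjusted p = 0.263, 0.198 and 0.917). Its activity is set mainly through protein stability, which RNA counts do not measure. The antisense genes HIF1A-AS1 and HIF1A-AS3 overlap 432 bases of its exons, and the strand setting of the counting is not given in the sources used here.

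Promoter sequences of LDHA, PGK1, BNIP3 and SLC2A1 are shown because the first 3 rose in AM cells while SLC2A1 fell, and they were chosen after their values and core counts were seen. Each is the 250 bases before the transcription start in RefSeq (GRCh38.p14), read 5′ to 3′ on the gene's strand, with HIF cores in capitals, that is ACGTG or GCGTG on either strand. A palindromic CACGTG holds 2 overlapping cores. The windows lie at chr11:18394313-18394562, plus strand for LDHA, chrX:78103998-78104247, plus strand for PGK1, chr10:131981924-131982173, minus strand for BNIP3 and chr1:42958869-42959118, minus strand for SLC2A1.
LDHA: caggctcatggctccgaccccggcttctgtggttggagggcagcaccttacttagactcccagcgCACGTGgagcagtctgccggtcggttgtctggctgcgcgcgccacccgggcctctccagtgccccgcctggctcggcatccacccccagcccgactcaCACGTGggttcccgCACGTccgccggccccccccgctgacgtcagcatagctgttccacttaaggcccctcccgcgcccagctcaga
PGK1: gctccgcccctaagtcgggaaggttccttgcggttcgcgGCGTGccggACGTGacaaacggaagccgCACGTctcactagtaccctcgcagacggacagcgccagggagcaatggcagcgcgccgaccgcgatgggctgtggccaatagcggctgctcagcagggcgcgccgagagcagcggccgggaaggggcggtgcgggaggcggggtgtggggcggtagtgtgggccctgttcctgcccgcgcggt
BNIP3: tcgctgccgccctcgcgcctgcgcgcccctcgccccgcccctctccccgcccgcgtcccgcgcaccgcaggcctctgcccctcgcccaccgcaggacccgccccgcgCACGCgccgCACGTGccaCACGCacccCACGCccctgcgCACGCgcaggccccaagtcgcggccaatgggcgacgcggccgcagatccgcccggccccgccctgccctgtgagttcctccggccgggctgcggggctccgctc
SLC2A1: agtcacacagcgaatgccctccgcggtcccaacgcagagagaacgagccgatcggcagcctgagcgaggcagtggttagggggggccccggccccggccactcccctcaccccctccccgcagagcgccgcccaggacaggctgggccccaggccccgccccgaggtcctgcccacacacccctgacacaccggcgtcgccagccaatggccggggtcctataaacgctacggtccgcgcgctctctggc

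LDHA held 5 cores, PGK1 3, BNIP3 6 and SLC2A1 0 in this window. Of the 33 members with a window, 21 (63.6%) held at least 1 core, beside 57.6% of the 10384 tested genes with a window and 43.1% of all 27305 windows. The share was 57.1% for the 14 core enzymes and 80% for the 10 HIF targets outside glycolysis with a window. A core in these letters is a description and not a bound site, and HIF binding was not measured. HK1, PGAM1 and PKM rose in AM cells with 0 cores, so calls were found with and without cores in this window. The counts depend on the window, which was shortened to the bases before the start after a window of 300 bases, reaching 50 past the start, had been searched. In that longer window SLC2A1 held 1 core, as did PKM, while LDHA held 6, PGK1 4 and BNIP3 6, so the absence of a core in SLC2A1 holds only for the shorter one. At least 1 core was then held by 24 members (72.7%), beside 63.3% of the tested genes and 48.4% of all windows, and by 64.3% of the core enzymes and 80.0% of the HIF targets outside glycolysis.

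Other genes of both pathways were counted from a list of 60 drawn from general knowledge of them, of which 46 were tested. In 6WP against WT 4 rose and 1 fell, in 6WP against AM 6 rose and 3 fell, and in AM against WT 6 rose and 6 fell. These are 10.9%, 19.6% and 26.1% of the 46, beside 3%, 21.3% and 17.7% of all genes. The median log2 fold changes over these 46 genes were 0.0029, -0.12 and 0.18. On the glycolysis side, PCK2, the mitochondrial enzyme that makes phosphoenolpyruvate, stood at 125 and 123 CPM in WT, 161 and 198 CPM in AM and 463 and 406 CPM in 6WP libraries. Both 6WP libraries exceeded all others, and PCK2 rose in 6WP over WT (1.81 ± 0.13, adjusted p = 0.00338) and over AM (1.28 ± 0.13, adjusted p = 0.00212). It also rose in AM over WT (0.53 ± 0.13, adjusted p = 0.0304). PGAM2, the muscle-type mutase, rose in 6WP over WT (0.84 ± 0.13, adjusted p = 0.0186), where PGAM1 gave -0.20 ± 0.17 (adjusted p = 0.544). PGAM2 also rose in AM over WT (0.56 ± 0.13, adjusted p = 0.0232) and was not called in 6WP against AM (0.28 ± 0.13, adjusted p = 0.146).

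On the HIF side, DDIT4, an inhibitor of mTORC1 that answers to hypoxia and to other stresses, stood at 33.6 and 38 CPM in WT, 57.2 and 78.5 CPM in AM and 144 and 127 CPM in 6WP libraries. It rose in 6WP over WT (1.92 ± 0.17, adjusted p = 0.00448) and over AM (0.99 ± 0.16, adjusted p = 0.00763). DDIT4 also rose in AM over WT (0.92 ± 0.17, adjusted p = 0.0118). STC2, a secreted glycoprotein, rose in 6WP over WT (1.82 ± 0.17, adjusted p = 0.00493) and over AM (1.33 ± 0.17, adjusted p = 0.00379). WSB1, a ubiquitin ligase subunit, fell in 6WP against WT (-0.82 ± 0.15, adjusted p = 0.0328). WSB1 also fell in AM against WT (-0.53 ± 0.15, adjusted p = 0.0436) and was not called in 6WP against AM (-0.29 ± 0.15, adjusted p = 0.191). As background, DDIT4, STC2, PCK2 and VEGFA are also known as targets of ATF4, a transcription factor of the integrated stress response.

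Against AM cells, ERO1A, an oxidase of the endoplasmic reticulum, fell in 6WP (-0.74 ± 0.14, adjusted p = 0.0117). ANGPTL4, a lipase inhibitor, rose (1.02 ± 0.18, adjusted p = 0.00903), as did MXI1, a MYC antagonist (1.00 ± 0.16, adjusted p = 0.00721). None of these 3 genes was called in 6WP against WT, and the difference between the 2 comparisons was not tested. MXI1 also fell in AM against WT (-0.57 ± 0.16, adjusted p = 0.0452). ERO1A and ANGPTL4 were not called in AM against WT (adjusted p = 0.2 and 0.0864).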

How the data were processed

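RNA was sequenced from 22Rv1 cells in 3 groups of 2 libraries, and groups were taken from the sample labels. The authors prepared stranded libraries and aligned reads to hg38, and the submitters' processing notes name STAR 2.5.3a, featureCounts 1.5.3, StringTie 1.3.3 and edgeR 3.22.3 without roles. The authors deposited whole-number counts of reads for 29804 gene symbols, which carry no normalization. The annotation and the strand setting of the counting are not given in the sources used here.

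Analysis of the counts used edgeR 4.0.16 with limma 3.58.1 in R 4.3.3, and DESeq2 1.42.0 as an alternative. The edgeR function filterByExpr (minimum count 10, 3 groups) removed low genes, TMM factors scaled the libraries, and 1 quasi-likelihood fit with no covariate took in all 6 libraries (common dispersion 0.0173). Tests were two-sided, with Benjamini-Hochberg adjustment over 14672 genes and a threshold of 0.05. CPM is TMM normalized, and per kb values use the GENCODE v44 canonical transcript. The fit was tested on simulated data. The members and the lists were chosen with earlier results of these data known, so no p is given for a list. Genes were named by a rule that takes GAPDH, HIF1A, every member called in a comparison and, in each role, the member with the highest mean CPM and the one with the largest fold change in 6WP against WT. The remaining members were named to account for all. From the other pathway genes, at most 8 called in 6WP against WT or AM were named, in order of p against WT. HIF cores were searched in RefSeq promoter sequences, in a window shortened after the counts in a longer one had been seen. Some of the cell type markers are not reported here. Other scalings, filters, tests and left-out libraries were tried. Counts limit precision through counting error, and floors cover counting error only. P-values measure the spread between cultures of 1 cell line.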

Additional observations from a re-analysis of the deposited data

How the results depend on the processing

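Each of the 27 gene calls kept its direction in every alternative run, and each lost its call in at least 1 of them, always including a fit that left out a WT or AM library. Such a fit has 1 sample in that arm, assumed to vary like the other groups. For 6WP against WT, 2 members were called (3% of all genes called). The count was 1 with library size only (2.58%) and with the 2 groups alone (0.661%). It was also 1 with a GC content offset (2.41%) and with that offset and the replicate block (2%). It was 4 with no filter (4.37%), with DESeq2 (7.51%) and with a gene length offset (3.37%), where calls over all genes rose as well. Leaving out 1 library gave 0 to 12 calls. For 6WP against AM, 14 calls (21.3% of all genes called) became 8 with the 2 groups alone (9.07%) and 0 to 21 with 1 library left out. For AM against WT, 11 calls (17.7% of all genes called) became 26 with the 2 groups alone (46.5%) and 0 in all 4 fits with 1 library left out. In both comparisons of 6WP cells, calls over all genes also rose without either 6WP library. They dropped without either library of the other group. The member counts with 1 library left out thus moved with the calls over all genes. The GC and length offsets were chosen after seeing the data.

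The median log2 fold change of HIF targets in 6WP against WT (-0.15) was -0.079 with no filter, -0.23 with the length offset and -0.14 to 0.030 with 1 library left out. In 6WP against AM it was 0.077 with upper quartile scaling. In AM against WT (0.04) it was -0.051 with upper quartile scaling, 0.11 with the GC offset, 0.10 with that offset and the replicate block, and -0.015 to 0.11 with 1 library left out. The core enzyme median was 0.45 with upper quartile scaling, 0.46 with the GC offset and 0.42 with the length offset in AM against WT (0.54), and -0.64 to -0.51 with 1 library left out in 6WP against AM (-0.52).

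Signs that turned all belonged to differences that were not called. With 1 library left out, log2 fold changes in 6WP against WT ran from -0.12 to 0.48 for HK2, -0.054 to 0.17 for ALDOA, -0.27 to 0.085 for ALDOC, -0.50 to 0.021 for PGAM1, -0.10 to 0.019 for ENO1, -0.32 to 0.017 for PKM, -0.040 to 0.24 for PFKFB2 and -0.23 to 0.11 for HIF1A. With the GC offset ALDOA became -0.069 and HIF1A 0.065, with that offset and the replicate block -0.070 and 0.058, and with the length offset ALDOA became -0.038. In AM against WT, LDHB ran from -0.023 to 0.17 and BNIP3L from -0.056 to 0.11 with 1 library left out. LDHB and BNIP3L became -0.035 and -0.051 with upper quartile scaling and -0.0032 and -0.019 with library size only, and LDHB became -0.14 with the length offset. The causes were not tested.

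The labels number the replicates without saying that a number marks a shared batch. Deviations of libraries with the same number correlated at 0.0873 in 6WP against WT, -0.0206 in 6WP against AM and 0.0395 in AM against WT over 14672 genes, so they were not taken to pair the libraries. With the replicate block, 2, 14 and 11 members were called in these comparisons, the same genes as without it.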

Other observations

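Genes near glycolysis, listed after the results above were known, were read from the same edgeR fit. TXNIP, a glucose-induced inhibitor of glucose uptake, stood at 1183 and 1135 CPM in WT, 322 and 442 CPM in AM and 1184 and 1369 CPM in 6WP libraries. The AM libraries lay far below the other 4. TXNIP fell in AM against WT (log2 fold change -1.60 ± 0.17, adjusted p = 0.00258) and rose in 6WP over AM (1.74 ± 0.17, adjusted p = 0.00203), while 6WP against WT gave 0.14 ± 0.16 (adjusted p = 0.65). ARRDC4, a relative of TXNIP with the same glucose-sensing regulators, stood at 104 and 98.7 CPM in WT, 38.9 and 41.1 CPM in AM and 107 and 71.6 CPM in 6WP libraries, fell in AM against WT (-1.34 ± 0.18, adjusted p = 0.00528) and rose in 6WP over AM (1.16 ± 0.18, adjusted p = 0.00658). MLXIPL (ChREBP), a glucose-sensing transcription factor, was low at 3.17 and 3.81 CPM in WT, 1.68 and 1.12 CPM in AM and 3.07 and 4.48 CPM in 6WP libraries and was called in the same directions (-1.34 ± 0.32, adjusted p = 0.0273 and 1.45 ± 0.31, adjusted p = 0.0175). MLX and MLXIP, its partner and its relative, were not called in any comparison. SLC2A1, TXNIP, ARRDC4 and MLXIPL were thus lowest in AM cells. Of the 5 genes on this list, 60% were called in AM against WT and 60% in 6WP against AM, beside 17.7% and 21.3% of all genes.

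Of 12 further SLC2A transporters, 7 were tested. SLC2A12, a glucose transporter known from prostate, stood at 36.2 and 38.8 CPM in WT, 11.6 and 10.3 CPM in AM and 23.3 and 28.3 CPM in 6WP libraries. It fell in AM against WT (-1.77 ± 0.15, adjusted p = 0.00157) and rose in 6WP over AM (1.23 ± 0.15, adjusted p = 0.00342). SLC2A6 did the reverse at low counts, with 1.48 ± 0.33, adjusted p = 0.0232 in AM over WT and -1.35 ± 0.32, adjusted p = 0.0232 in 6WP against AM. SLC2A8 also fell in 6WP against AM (-0.47 ± 0.14, adjusted p = 0.0474) and was not called in AM over WT (0.45 ± 0.14, adjusted p = 0.0614). Of the 7 tested, 28.6% were called in AM against WT and 42.9% in 6WP against AM, beside 17.7% and 21.3% of all genes. Of 7 pentose phosphate enzymes, PGD and TALDO1 rose in AM over WT (0.40 ± 0.10, adjusted p = 0.0301 and 0.50 ± 0.11, adjusted p = 0.0198), and PGD, TALDO1 and RPE fell in 6WP against AM (-0.56 ± 0.10, adjusted p = 0.00934, -0.47 ± 0.11, adjusted p = 0.0213 and -0.37 ± 0.11, adjusted p = 0.0453). None of these 7 enzymes was called in 6WP against WT by edgeR, where 3% of all genes were. Their calls were 28.6% of the 7 in AM against WT and 42.9% in 6WP against AM, beside 17.7% and 21.3% of all genes. The processing alternatives were not run for the genes of these lists.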
